A study of Mus musculus with 28 samples.

Results

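Mouse C2C12 myotubes were compared with mouse MLg lung fibroblasts, each cultured without a partner. Of the series' 28 libraries, 8 belonged to the comparison, chosen by their labels alone: 4 of C2C12 alone and 4 of MLg alone. In the study both lines served as the layer on which EO771 mouse breast cancer cells were kept in direct contact, and its title names hypoxia in connection with an antiproliferative effect of muscle. The present comparison asks how those layers differed before any cancer cell was added. The C2C12 group was labelled myotubes, wild type and not co-cultured, and the MLg group lung fibroblasts, wild type and not co-cultured. Both groups were given the same medium, DMEM with 10% serum and 1% penicillin and streptomycin at 37°C, and carried no further agent or allele. Each group was a single established line, so line, tissue of origin and cell type could not be told apart. In bulk RNA, fewer cells of a type and less RNA per cell could likewise not be told apart. The labels did not say whether the 4 libraries of a group came from separate cultures, and the p-values may measure technical spread only.

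C2C12 is a line of mouse muscle precursors, called myoblasts, that leave the cell cycle and fuse into multinucleated myotubes when growth factors are withdrawn. The factors Myf5 and Myod1 mark the committed precursor. Myog then switches on the genes for fusion, the sarcomere, calcium handling and the nerve contact. Skeletal muscle uses glycolysis for rapid work and oxidative phosphorylation for sustained work. MLg cells are fibroblasts from mouse lung. Fibroblasts make collagen and other matrix, and they keep a record of their place of origin in their HOX and T-box transcription factors. Cells in low oxygen stabilise the factor HIF-1, which raises glycolysis, the angiogenic factor Vegfa and the pH regulator Car9.

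The libraries held 54833532 to 96491326 counts in C2C12 and 61734484 to 69688319 in MLg. Libraries are named here by the R number in their titles, whose meaning the labels did not give. C2C12 R3-1 and R3-2 stood apart from C2C12 R2-1 and R5-1 in their myotube genes. A list of 10 myotube markers, of which 9 passed the filter, summed to 242 and 439 counts per 1000000 (CPM) in the R3 pair and to 2491 and 3458 CPM in R2-1 and R5-1. All 4 were far above the 2.86 to 6.27 CPM of the MLg libraries. The list of 8 myoblast markers summed to 838, 676, 659 and 793 CPM in R2-1, R3-1, R3-2 and R5-1 and to 397 to 481 CPM in MLg. Most of that sum came from Sdc4 and Vcam1, which both lines expressed (Vcam1 at 271 to 401 CPM in C2C12 and 260 to 341 CPM in MLg). Of the members almost absent from MLg, Cdh15 (44 and 49.5 against 98 and 141 CPM), Myod1 and Pax7 were lower in the R3 pair, whereas Myf5 and Heyl were not. MLg R3-2 differed from the other 3 MLg libraries in its mitochondrial share, 9.14% against 5.14 to 6.06%. Among marker lists of other cell types, the macrophage list summed to at most 5.32 CPM in C2C12 and 17.9 CPM in MLg, the endothelial list to at most 3.43 CPM and the epithelial list to at most 9.44 CPM. Other mesenchymal lists were not low. The tendon list summed to 368 to 939 CPM in C2C12 and 353 to 504 CPM in MLg, mostly from Egr1. The smooth muscle or pericyte list summed to at most 301 and 136 CPM, mostly from Notch3 and Cspg4, and the chondrocyte or osteoblast list to at most 208 and 104 CPM, from Sox9 and Runx2. The adipocyte list summed to at most 152 and 88 CPM, and the mesothelial list to at most 132 and 96.6 CPM, the latter mostly from Msln. Some defining members of these lists were at or near 0 in both lines: Myh11, Acan, Adipoq and Muc16 did not exceed 0.261 CPM in any library. Others were expressed, with means of 28.5 CPM in C2C12 and 1.25 CPM in MLg for Cebpa and 9.19 and 0.207 CPM for Pparg. In the same order, the tendon factor Scx stood at 22.1 and 4.93 CPM, and mesothelial Wt1 at 0.0745 and 2.07 CPM. What such cells contribute to the differences was not tested. Where leaving out the R3 pair, or any 1 library, moved a printed fold change by over 1.5 times, the value without it is given in the same paragraph.

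The lines differed in most of what they expressed. Of 17350 genes tested with edgeR, 11279 were called at an adjusted p under 0.05, a share of 65.0%. Because that share was so high, a gene is counted below as higher in a line only if it was called and at least 2-fold apart. That held for 2868 genes in C2C12 (16.5%) and 2951 in MLg (17.0%), while 5460 genes were called with a smaller difference and 6071 were not called. The counts of list members below are to be read beside these shares. In CPM, all C2C12 libraries lay above all MLg libraries for 4391 of the 17350 genes, and below them for 6491. Lack of overlap alone thus did not set a gene apart. The median log2 fold change over all tested genes was -0.03; positive values throughout mean higher in C2C12. With scaling by library totals alone that median was -0.19, and the share of called genes that were higher in C2C12 was 40.3% instead of 50.2%. Genes of muscle, glycolysis and the hypoxia response lay mostly on the C2C12 side, and genes of mitosis, interferon response, antigen presentation and cholesterol synthesis on the MLg side.

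**Figure D1:**
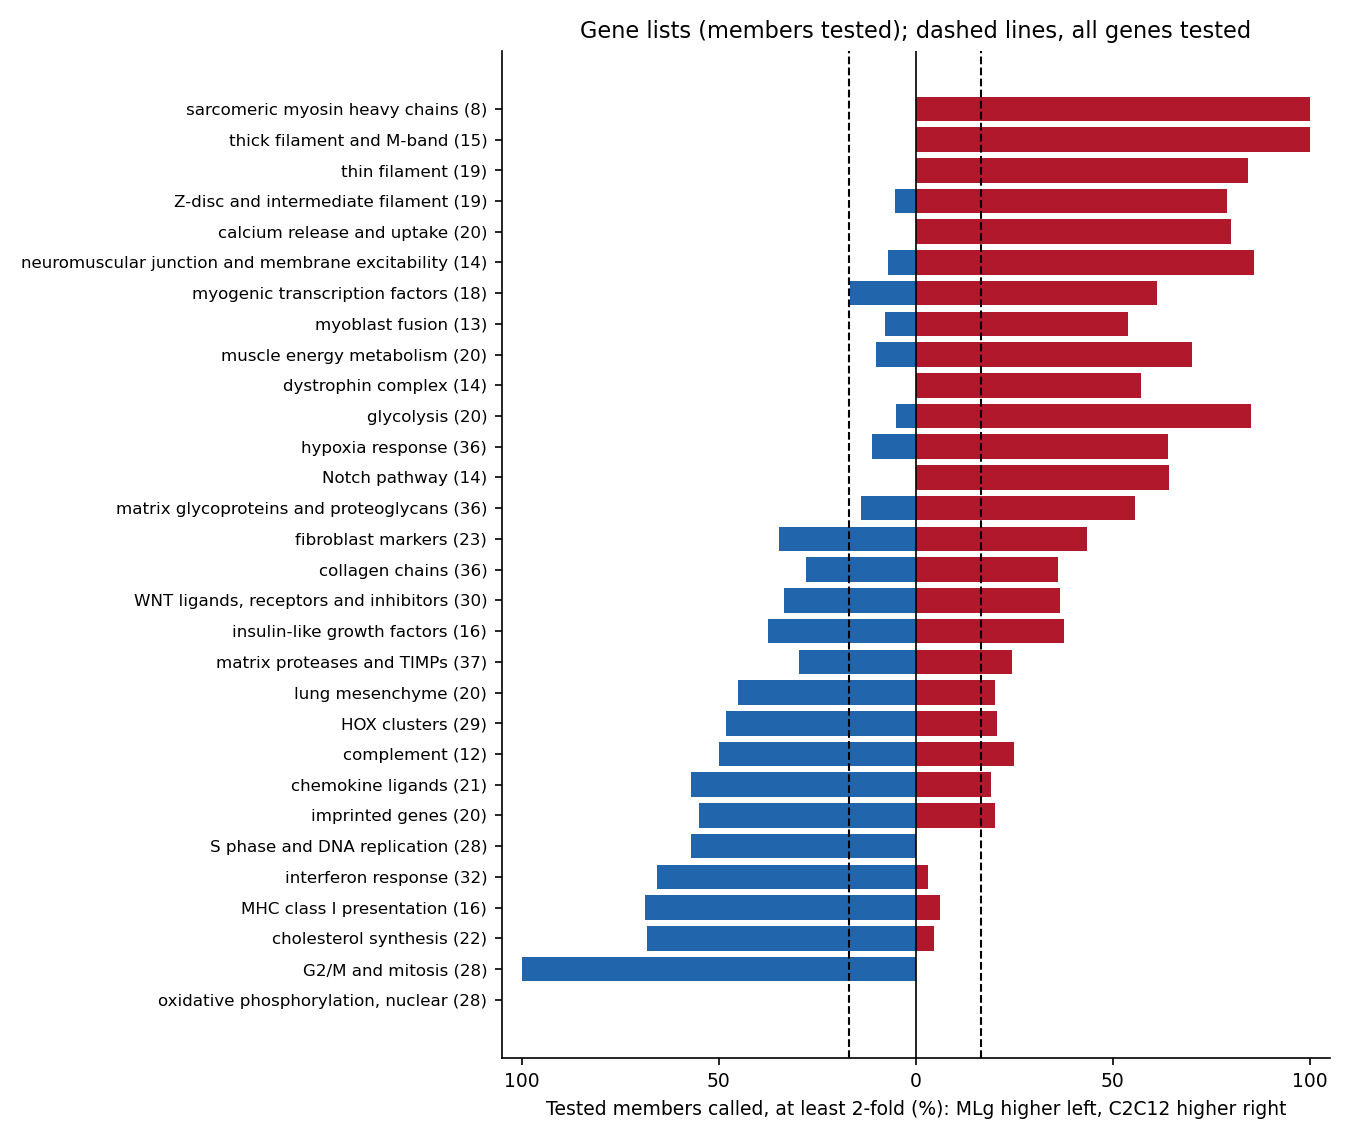
For 30 gene lists, the bars give the percent of tested members that were called and at least 2-fold apart, to the left for those higher in MLg and to the right for those higher in C2C12; dashed lines mark 17.0% and 16.5%, the shares over all genes. The myosin heavy chain and thick filament lists, with all 8 and all 15 tested members, reach furthest to the right. The G2/M list, with all 28 members, reaches furthest to the left.

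The regulators of muscle were the first layer of the difference. Of 18 tested myogenic transcription factors, 11 were higher in C2C12 and 3 in MLg, with a median log2 fold change of 2.72. Myf5 stood at 21.1, 23.6, 23.9 and 28.4 CPM in C2C12 R2-1, R3-1, R3-2 and R5-1, the order used for C2C12 throughout. In MLg R3-2, R5-2, R6-1 and R6-2, likewise the order used throughout, it stood at 0.0287, 0, 0 and 0 CPM. Myf5 was thus level among the C2C12 libraries and almost absent from MLg. Myod1, the determination factor, stood at 37.9, 13, 15.3 and 69.5 CPM in C2C12 and at most 0.0324 CPM in MLg (log2 fold change 11.10, SE 0.90, adjusted p = 4.80e-06). Myog, at chr1:134289989-134292548 of GRCm38, stood at 66.5, 9.48, 12.2 and 98.4 CPM against 0.316, 0, 0.0288 and 0.0324 CPM (log2 fold change 9.01, SE 1.15, adjusted p = 9.48e-05). Both factors were lowest in the R3 pair, and neither overlapped MLg. Without the R3 pair the log2 fold changes were 11.75 for Myod1 and 9.83 for Myog; without C2C12 R5-1 they were 10.52 and 8.37, and that of Myog was 11.17 without MLg R3-2.

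The satellite cell factor Pax7 was found at 2.92, 0.684, 0.698 and 15 CPM in C2C12 and at 0 in all MLg libraries, at least 429-fold higher against a floor of 3 counts over the 4 MLg libraries. That bound rested largely on R5-1: it was 128-fold without R5-1 and 797-fold without the R3 pair. Vgll2, a muscle cofactor of the TEAD proteins, was likewise at 0 in MLg and at least 135-fold higher in C2C12. Pax3, the relative of Pax7 in embryonic muscle precursors, was the reverse. Pax3 stood at 49.3 to 52.2 CPM in MLg and at most 0.087 CPM in C2C12 (log2 fold change -10.29, SE 0.32, adjusted p = 1.54e-08; -9.44 without the R3 pair and -11.14 without R5-1). Mef2c, a late partner of Myog, was not called: its values of 25.8, 2.54, 6.28 and 46.1 CPM in C2C12 spanned the 10.2 to 19.1 CPM of MLg (log2 fold change 0.76, adjusted p = 0.371). Without the R3 pair Mef2c was higher in C2C12 (1.59, adjusted p = 0.0015), and without C2C12 R5-1 its difference was -0.02.

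Of 13 tested genes for myoblast fusion, 7 were higher in C2C12 and 1 in MLg. Mymk, the membrane protein myomaker, stood at 84.2, 9.97, 12.4 and 130 CPM in C2C12 and 0.0648 to 0.201 CPM in MLg (log2 fold change 8.97, SE 1.11, adjusted p = 7.54e-05; 9.82 without the R3 pair and 8.26 without R5-1). Mymx, the small fusion peptide that acts with it, stood at 7.13, 1.61, 2.14 and 6.94 CPM and at 0 in all MLg libraries, at least 397-fold higher, or 626-fold without the R3 pair. The fusion pair was therefore found in all 4 C2C12 libraries, at its lowest in the R3 pair. Cdh15, the M-cadherin of myoblasts, was higher in C2C12 by 10.37 (SE 0.68; 12.02 without MLg R3-2), and the junctional adhesion molecule Jam3 was higher in MLg (log2 fold change -1.33, SE 0.10).

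Sarcomere genes lay almost wholly on the C2C12 side. Of 15 tested genes of the thick filament and M-band all 15 were higher in C2C12, with a median log2 fold change of 5.99, or 6.88 without the R3 pair. Of 19 tested thin filament genes 16 were higher in C2C12 (median 6.58, or 7.49 without the pair), and of 19 tested Z-disc and intermediate filament genes 15 were, with 1 higher in MLg. The thick filament list summed to 2167, 154, 356 and 2721 CPM in C2C12 and 14.9 to 25.3 CPM in MLg. The C2C12 libraries spread over a wide range in that sum but all 4 lay above MLg.

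All 8 tested sarcomeric myosin heavy chains, the motor proteins that set a fibre's type, were higher in C2C12. Their order was compared as mean CPM per kilobase of exon in the C2C12 group. Embryonic Myh3 led with 73.1, followed by the fast chains Myh1 with 37.1 and Myh4 with 7.26, and by fast Myh2 with 1.43. Perinatal Myh8 had 0.907, the slow-tonic chain Myh7b 0.734, slow Myh7 0.544 and extraocular Myh13 0.216. The order Myh3, Myh1, Myh4 held in each of the 4 libraries, although the ranges of neighbours overlapped. The order of the others did not hold: Myh13 was last in R2-1 and R5-1 (0.195 and 0.167) but next after Myh4 in R3-1 and R3-2 (0.241 and 0.26), above Myh2 (0.0741 and 0.233). Myh8 lay above Myh7b in R5-1 alone (2.62 against 1.41). Myh3 stood at 888, 43.1, 117 and 724 CPM in C2C12 against 0.469 to 3.21 CPM in MLg (log2 fold change 8.42, SE 1.18, adjusted p = 0.000171; 9.29 without the C2C12 R3 pair, and also 9.29 without MLg R3-2). Myh1 stood at 363, 9.89, 35.4 and 535 CPM against a single count in the 4 MLg libraries together. Myh13 behaved differently among the C2C12 libraries, with 1.2, 1.49, 1.61 and 1.03 CPM, so that the R3 pair was the higher one.

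Among the other filament genes, Acta1, the skeletal alpha-actin, stood at 586, 33.4, 68.7 and 932 CPM in C2C12 and 0.0605 to 1.28 CPM in MLg (log2 fold change 9.59, SE 1.37, adjusted p = 0.000193; 10.49 without the R3 pair). The giant spring protein Ttn stood at 503, 38.8, 120 and 578 CPM and differed by 7.86 (SE 0.90, adjusted p = 4.64e-05). The cardiac actin Actc1, which embryonic skeletal muscle also uses, differed by 8.00 (SE 1.25), the fast light chain Mylpf by 8.25 (SE 1.13), and the myosin binding protein Mybph by 9.24 (SE 1.41). Leaving out the R3 pair gave 8.66 for Ttn, 8.90 for Actc1, 9.15 for Mylpf and 10.16 for Mybph. Leaving out C2C12 R5-1 gave 8.79 for Acta1, 7.26 for Actc1, 7.54 for Mylpf and 8.52 for Mybph, and leaving out MLg R3-2 gave 10.40 for Acta1 and 8.68 for Actc1. The broadly expressed tropomyosin Tpm3 was called with a small difference (0.45, SE 0.07).

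Des, the intermediate filament desmin that is made before fusion, stood at 441, 171, 194 and 579 CPM in C2C12 against 0.713 to 1.29 CPM in MLg (log2 fold change 8.72, SE 0.52, adjusted p = 6.61e-07). Its spread among C2C12 libraries was narrower than that of Acta1, Myh3 or Myh1. The Z-disc protein Pdlim3 stood at 77.1, 5.88, 14 and 93.9 CPM and at 0 in all MLg libraries, at least 4248-fold higher (7613-fold without the R3 pair). Actn3, the fast-fibre alpha-actinin, differed by 7.42 (SE 0.78; 8.19 without the R3 pair) and the repeat protein Xirp1 by 10.35 (SE 1.44; 11.23 without the pair and 13.48 without MLg R6-1).

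**Figure D2:**
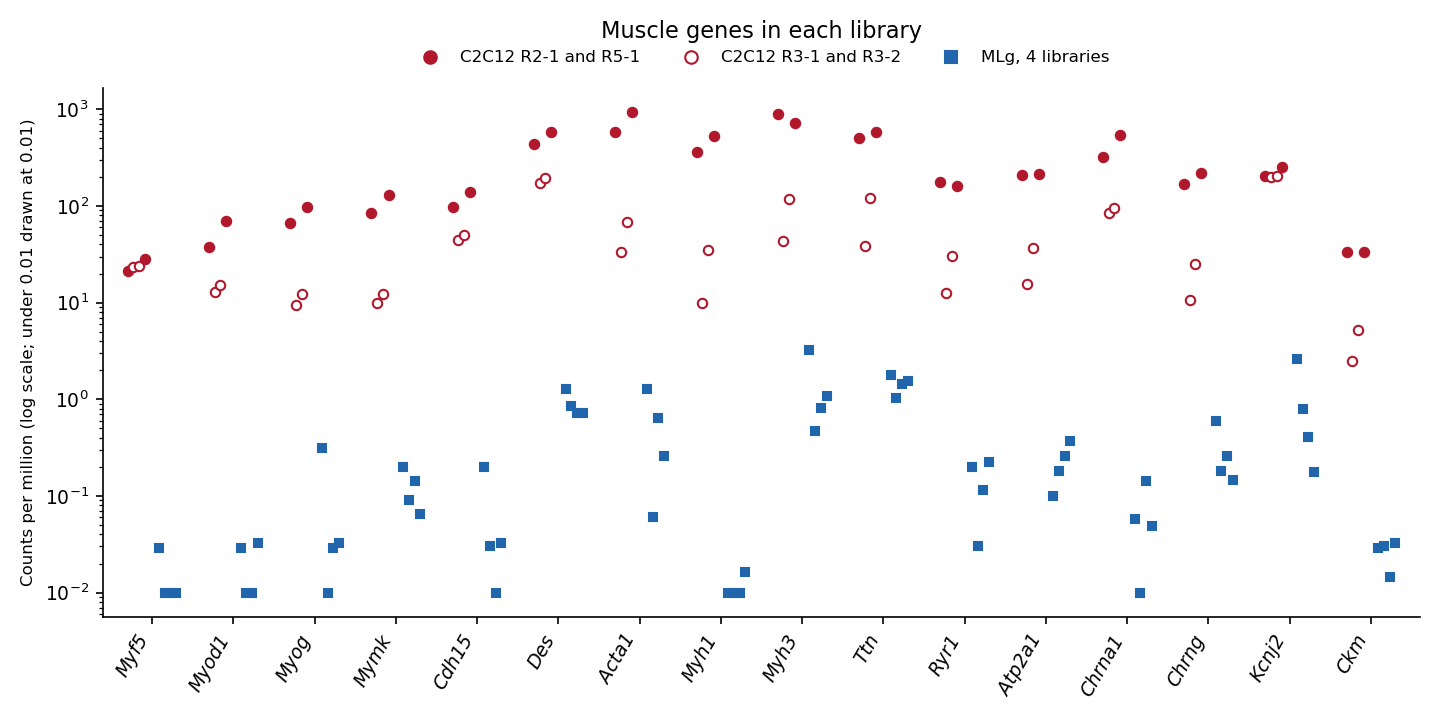
CPM on a log scale of 16 muscle genes in each library, with filled red circles for C2C12 R2-1 and R5-1, open red circles for C2C12 R3-1 and R3-2 and blue squares for MLg; values under 0.01 are drawn at 0.01. For Myf5 the 4 C2C12 libraries lie together between 21.1 and 28.4 CPM, whereas for Acta1 the open circles at 33.4 and 68.7 lie well below the filled ones at 586 and 932 CPM.

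The genes for excitation and calcium release followed the sarcomere. Of 20 tested calcium release and uptake genes, 16 were higher in C2C12 and none in MLg, with a median log2 fold change of 6.41. Ryr1, the calcium release channel, stood at 179, 12.6, 30.7 and 162 CPM and differed by 9.51, and its voltage sensor Cacna1s differed by 9.15 (SE 1.44). Atp2a1, the fast-fibre calcium pump, stood at 210, 15.6, 36.9 and 213 CPM against 0.1 to 0.373 CPM (log2 fold change 9.16, SE 1.06, adjusted p = 4.92e-05). The store protein Casq2 differed by 8.66 (SE 1.30). In the fit without the R3 pair the values were 10.34 for Ryr1, 10.05 for Cacna1s, 9.99 for Atp2a1 and 9.59 for Casq2. Cacna1s stood at 8.52 and Casq2 at 8.01 without C2C12 R5-1, and Cacna1s at 10.86 without MLg R3-2. Atp2a2, the pump found in most cells, was not called (log2 fold change -0.01, adjusted p = 0.976), though without the R3 pair it was called at under 2-fold in the C2C12 direction (0.29, adjusted p = 0.00848). The store sensor Stim1 was called in the MLg direction at under 2-fold (-0.73, SE 0.06).

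At the neuromuscular junction and membrane, 12 of 14 tested genes were higher in C2C12 and 1 in MLg. Chrna1, the alpha subunit of the muscle acetylcholine receptor, stood at 321, 83.8, 95.1 and 544 CPM in C2C12 and at most 0.144 CPM in MLg (log2 fold change 12.09, SE 0.97, adjusted p = 4.51e-06). The delta subunit Chrnd differed by 9.18 (SE 1.15), the fetal gamma subunit Chrng by 8.57 (SE 1.16), and Musk, the receptor kinase that clusters them, by 7.61 (SE 0.34). The subunits differed by 12.81, 10.02 and 9.45 without the R3 pair and by 11.48, 8.53 and 7.96 without C2C12 R5-1, in the order Chrna1, Chrnd and Chrng. Chrng differed by 9.19 without MLg R3-2, and Chrna1 by 12.89 without MLg R6-1. The inward rectifier channel Kcnj2 stood at 202, 200, 203 and 254 CPM in C2C12 and at 0.178 to 2.61 CPM in MLg (log2 fold change 7.87, SE 0.67, adjusted p = 6.69e-06; 9.01 without MLg R3-2). Unlike the receptor subunits, Kcnj2 in the R3 pair was level with R2-1, and R5-1 alone was higher. The muscle chloride channel Clcn1, at 1.69 to 1.94 CPM in MLg and 0.449 to 0.93 CPM in C2C12, was higher in MLg.

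In the dystrophin complex, which ties the cytoskeleton to the matrix, 8 of 14 tested genes were higher in C2C12 and none in MLg (1 without C2C12 R5-1, and 1 without MLg R3-2). Sgca, the muscle sarcoglycan, differed by 8.55 (SE 0.66; 9.87 without MLg R3-2), while its ubiquitous partner Dag1 was close to level (-0.31, SE 0.07). Of 20 tested genes of muscle energy metabolism 14 were higher in C2C12 and 2 in MLg, or 1 without MLg R3-2. Ckm, the muscle creatine kinase, stood at 33.3, 2.48, 5.26 and 33.7 CPM against 0.0144 to 0.0324 CPM (log2 fold change 9.50, SE 1.16, adjusted p = 7.17e-05; 10.34 without the R3 pair). The oxygen store Mb differed by 8.55 (SE 1.50), with 9.49 without the pair, 7.87 without C2C12 R5-1 and 10.22 without MLg R3-2. Against the direction of the list, Ppargc1a, the coactivator for mitochondrial genes in oxidative fibres, stood at 1.48 to 2.68 CPM in C2C12 and 22 to 27.1 CPM in MLg (log2 fold change -3.55, SE 0.19, adjusted p = 3.11e-07). Pdk4, the kinase that turns pyruvate away from the mitochondrion, was also higher in MLg (-1.08, SE 0.09).

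Promoters of 2 muscle genes are shown because both genes were almost silent in MLg, and because Des and Chrna1 are known targets of the Myod1 family. That family binds the E-box, CANNTG, and favours CAGCTG. The windows are the 250 bases before the gene's first base in RefSeq (GRCm38.p6), read in the gene's direction, with every CAGCTG in capitals. Both strands were searched, which for this palindrome is the same letters. The Chrna1 window lies at chr2:73580339-73580588 on the minus strand and holds 2 matches to CAGCTG and 3 to CANNTG. The Des window lies at chr1:75360042-75360291 on the plus strand and holds 1 match to CAGCTG. Neither window holds the MEF2 motif, which was also searched and which 2.92% of all RefSeq windows held.
Chrna1: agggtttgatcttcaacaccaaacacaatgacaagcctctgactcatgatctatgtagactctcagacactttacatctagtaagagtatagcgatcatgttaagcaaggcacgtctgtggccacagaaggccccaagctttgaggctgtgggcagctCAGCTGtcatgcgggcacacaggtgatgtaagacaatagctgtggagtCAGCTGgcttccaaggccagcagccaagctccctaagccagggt
Des: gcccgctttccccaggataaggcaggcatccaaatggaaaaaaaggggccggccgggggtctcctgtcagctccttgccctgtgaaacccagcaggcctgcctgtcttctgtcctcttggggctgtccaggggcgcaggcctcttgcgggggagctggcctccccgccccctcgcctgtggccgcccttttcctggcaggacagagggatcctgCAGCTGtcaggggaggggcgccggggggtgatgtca
Over all 32851 RefSeq windows of that length, 66.2% held CANNTG and 13% held CAGCTG. Of all genes with a window, 14.7% held the second motif in at least 1 of them. On the thick filament list 5 of 13 such genes did, and on the thin filament list 8 of 16. On the neuromuscular list 5 of 11 did. Each match is a string of letters, and no binding was measured.

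Secreted muscle factors were more mixed. Of 15 tested myokines, 8 were higher in C2C12 and 1 in MLg. Il15 stood at 19.2, 18.6, 17.7 and 11.3 CPM against 1.88 to 2.5 CPM (log2 fold change 3.10, SE 0.20), and Fgf21, a metabolic hormone, differed by 6.15 (SE 0.69). The myostatin antagonist Fst was the member higher in MLg (-1.98, SE 0.16), and Mstn itself did not pass the filter on low counts. Of 16 tested atrophy and autophagy genes 5 were higher in C2C12 and none in MLg, with a median of 0.41.

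Fibroblast genes were split between the lines. Of 23 tested members of a broad fibroblast list, 10 were higher in C2C12 and 8 in MLg. Pdgfra, the receptor that marks many mesenchymal cells, stood at 111, 122, 127 and 76.8 CPM in C2C12 and 1448, 1548, 1445 and 1524 CPM in MLg (log2 fold change -3.60, SE 0.18, adjusted p = 2.07e-07). Its relative Pdgfrb was the reverse, at 880 to 1372 CPM in C2C12 and 393 to 528 CPM in MLg (1.46, SE 0.16). On a shorter list of fibroblast markers 8 were tested. Of these Pdgfra, Col1a1, Col1a2 and Lum were higher in MLg, Pdgfrb and Fap were higher in C2C12, and Dcn and Ddr2 were not called; without the R3 pair Dcn was called at under 2-fold in the C2C12 direction (0.37, adjusted p = 0.0379). The classical markers Thy1 and Tcf21 were at or near 0 in both lines. On neither list did the tested markers all lie on the MLg side. Cd34, a surface protein of tissue fibroblasts and precursor cells, was higher in C2C12 by 6.42 (SE 0.29). Twist1, a factor of embryonic mesenchyme, was at 0 in all C2C12 libraries and at 7.73 to 10 CPM in MLg, at least 892-fold lower in C2C12.

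The collagens split by chain. Of 36 tested collagen genes, 13 were higher in C2C12 and 10 in MLg. Type I collagen was higher in MLg: Col1a1 stood at 635, 939, 1088 and 861 CPM in C2C12 and 6407, 6625, 5447 and 5434 CPM in MLg (log2 fold change -2.60, SE 0.18, adjusted p = 1.96e-06), and Col1a2 differed by -1.39 (SE 0.19). Type III collagen was higher in C2C12: Col3a1 stood at 19601, 19033, 20068 and 18009 CPM against 2840, 6442, 5261 and 5719 CPM (2.09, SE 0.23, adjusted p = 3.30e-05). Col12a1, which links fibrils in muscle and tendon, was also higher in C2C12 (3.47, SE 0.38). No library of either line overlapped the other for these 4 chains, as was the case for most tested genes.

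Among other matrix genes, 20 of 36 tested glycoproteins and proteoglycans were higher in C2C12 and 5 in MLg, but these counts were 16 and 9 without the R3 pair. Fn1, fibronectin, stood at 22054 to 29793 CPM in C2C12 and 10234 to 12317 CPM in MLg (1.48, SE 0.15). Postn, the periostin of injured and growing tissue, stood at 758, 1107, 1149 and 397 CPM against 13 to 17.3 CPM (6.08, SE 0.38; 5.47 without the R3 pair). Thbs1, thrombospondin, stood at 5056, 10731, 11120 and 3606 CPM against 2062 to 2510 CPM, and its log2 fold change fell from 1.92 to 1.06 without the R3 pair. In Postn and Thbs1 the R3 pair was thus the higher one, opposite to the sarcomere genes. Tnxb, a tenascin of loose connective tissue, was higher in MLg (-8.01, SE 0.37; -7.34 without the pair). The interstitial proteases Mmp3 (-7.26, SE 0.97), Mmp13 (-5.83, SE 0.70) and Mmp9 (-5.25, SE 0.46) were also higher in MLg, whereas Mmp2 was called in the C2C12 direction at under 2-fold (0.77, SE 0.17). Itga7, the laminin receptor subunit of muscle, was higher in C2C12 (3.96, SE 0.31), and Itga2, a collagen receptor subunit, in MLg (-8.12, SE 0.45; -9.32 without the pair). Mmp3 differed by -6.23 and Mmp13 by -4.95 without the R3 pair, and by -9.23 and -7.19 without C2C12 R2-1.

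Several transcription factors of body position were found in just 1 of the lines. Tbx5, a T-box factor of the lung, heart and forelimb, was at 0 in all C2C12 libraries and at 34.5, 33.5, 31.6 and 31.4 CPM in MLg, at least 3189-fold lower in C2C12; the gene lies at chr5:119832668-119885219. Foxf1, a factor of lung mesenchyme, stood at 2.33, 1.63, 1.23 and 0.739 CPM in C2C12 and 25.1 to 27.8 CPM in MLg (log2 fold change -4.02, SE 0.30, adjusted p = 3.21e-06). The hedgehog effector Gli2 (-5.81, SE 0.13) and Tbx4 (-2.89, SE 0.35) were higher in MLg as well. Over the whole lung mesenchyme list 9 of 20 tested genes were higher in MLg and 4 in C2C12. Those 4 were not far from the 16.5% over all genes. On a list of limb and trunk factors 6 of 15 tested genes were higher in C2C12 and 3 in MLg. Those 3 were not far from the 17.0% over all genes. Gata6, of that list, was higher in MLg (-10.77, SE 0.56). Its difference was -9.67 without the R3 pair and -14.01 without C2C12 R2-1. In the other direction Zic1, a factor of the dorsal embryo, stood at 15.1 to 20.8 CPM in C2C12 and 0 in MLg, at least 1518-fold higher.

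HOX genes lie along each cluster in an order that follows position along the body. The tested HOXB genes lay on the MLg side, whereas HOXA and HOXC each held genes higher in either line. Of 29 tested HOX genes, 6 were higher in C2C12 and 14 in MLg. All 9 tested HOXB genes were higher in MLg. Of 11 HOXA genes 3 were higher in C2C12 and 4 in MLg, of 9 HOXC genes 3 and 1, and none of the 9 HOXD genes passed the filter on low counts. Hoxb9, at chr11:96271457-96276595, was at 0 in all C2C12 libraries and at 115, 119, 124 and 116 CPM in MLg, at least 11524-fold lower in C2C12. Hoxb7 was likewise at 0 in C2C12 and at 19.2 to 21.2 CPM in MLg, and Hoxb8 (-11.52, SE 0.34) and Hoxb6 (-9.94, SE 0.45) were close to 0 in C2C12. Hoxb8 differed by -10.42 without the R3 pair and by -12.11 without C2C12 R2-1, and Hoxb6 by -11.18 without C2C12 R3-2. From the HOXA and HOXC clusters, Hoxa11 stood at 33, 36.8, 32.8 and 29.2 CPM in C2C12 against 0.0861 to 0.144 CPM (8.29, SE 0.18, adjusted p = 4.24e-09). Hoxc11 stood at 43.3 to 49.4 CPM against 0.617 to 1.07 CPM (6.02, SE 0.16), and Hoxa9, Hoxa10 and Hoxc10 were higher in C2C12 by 4.88, 2.37 and 3.78. Hoxc4, which acts nearer the head end, was not called (-0.01, adjusted p = 0.927). None of these HOX values changed direction or call without the R3 pair.

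**Figure D3:**
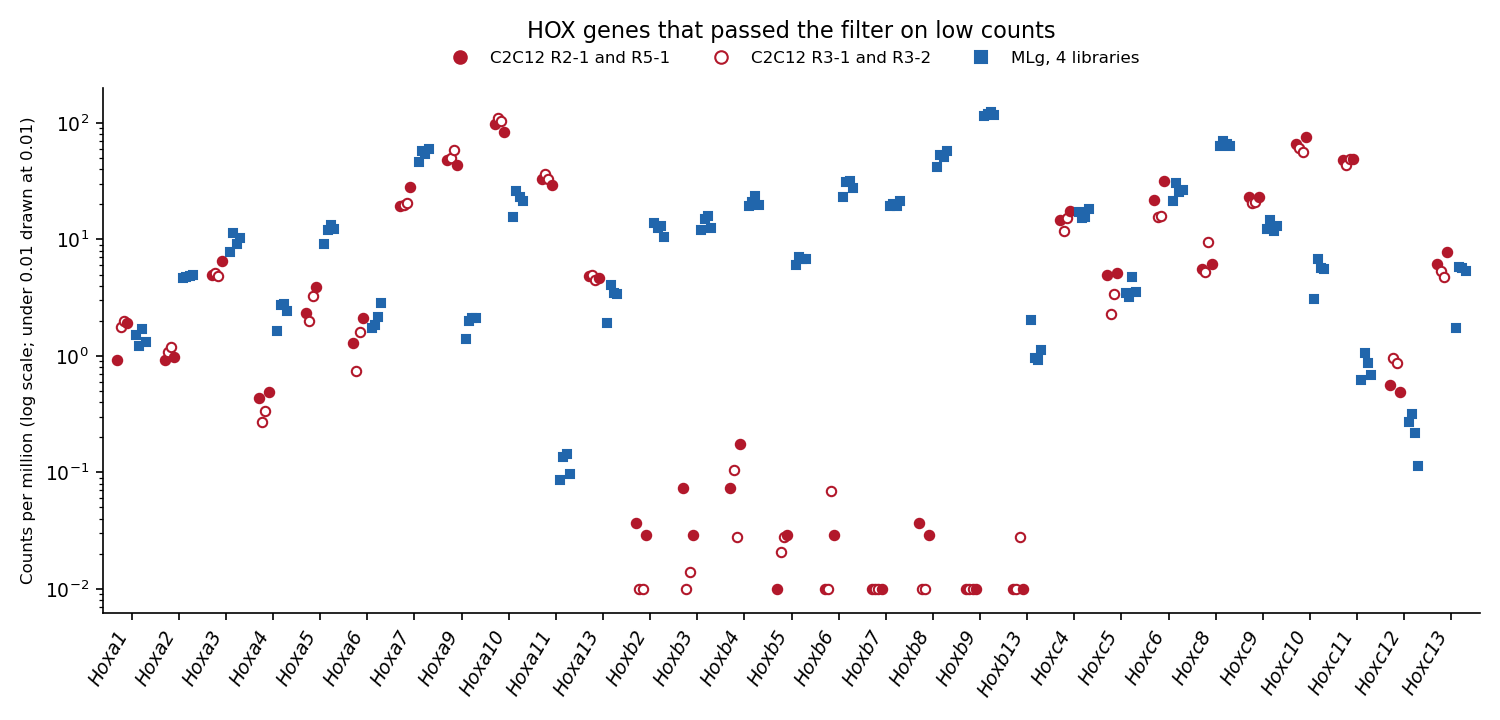
CPM on a log scale of the 29 HOX genes that passed the filter, by cluster, in each library, with symbols as in the plot of muscle genes and values under 0.01 drawn at 0.01. Hoxb9 lies at 115 to 124 CPM in MLg and at the floor in C2C12, and Hoxa11 at 29.2 to 36.8 CPM in C2C12 and at most 0.144 CPM in MLg.

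Some signalling families were split between the lines by member, and others leaned to the C2C12 side. Of 16 tested genes of the insulin-like growth factor family 6 were higher in each line. The ligand Igf1, a muscle growth factor, stood at 159, 239, 241 and 162 CPM in C2C12 and 25.4 to 51.4 CPM in MLg (2.41, SE 0.24). The binding protein Igfbp5, induced during muscle differentiation, stood at 1157, 213, 242 and 2070 CPM against 0.907 to 9.1 CPM (8.26, SE 1.18), while Igfbp3 stood at 30.2, 116, 108 and 17.3 CPM against 0.143 to 0.242 CPM (8.74, SE 0.83). Within C2C12, Igfbp5 and Igfbp3 were opposite, Igfbp5 lower and Igfbp3 higher in the R3 pair. Igfbp4 (-3.05, SE 0.29) and the RNA-binding protein Igf2bp1 (-7.66, SE 0.57) were higher in MLg. For the R3 pair left out, Igfbp5 differed by 9.07, Igfbp3 by 7.16 and Igf2bp1 by -10.02. Igfbp5 differed by 7.52 without C2C12 R5-1 and by 9.65 without MLg R3-2, and Igf2bp1 by -8.46 without C2C12 R3-2.

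Of 33 tested genes of the PDGF, FGF, HGF, VEGF and EGF families 17 were higher in C2C12 and 5 in MLg, but 14 and 8 without the R3 pair. The shares over all genes were 16.5% and 17.0%, and the 5 higher in MLg were near the latter. Angpt1, a vessel-stabilising ligand, stood at 388, 457, 445 and 337 CPM in C2C12 against 21.1 to 39.1 CPM (3.78, SE 0.21). The lymphatic ligands Vegfd (-3.13, SE 0.19) and Vegfc (-3.63, SE 0.58; -2.91 without the R3 pair and -4.59 without C2C12 R5-1) were higher in MLg, opposite to Vegfa, described below. Of 36 tested genes of TGF-beta and BMP signalling 14 were higher in C2C12 and 7 in MLg. Those 7 were also near the 17.0% over all genes. The ligand Tgfb1 stood at 79.9 to 92 CPM in C2C12 and 17.8 to 22.2 CPM in MLg (2.27, SE 0.10), and the activin subunit Inhba differed by 2.58, or 1.57 without the R3 pair. The BMP antagonist Grem1 stood at 766, 448, 377 and 854 CPM against 3854, 3062, 3052 and 2961 CPM (-2.26, SE 0.25).

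Of 30 tested WNT genes 11 were higher in C2C12 and 10 in MLg. The secreted WNT inhibitors were split: Sfrp2 stood at 25.5, 64.1, 58.3 and 125 CPM in C2C12 and 0 in MLg, at least 6065-fold higher, whereas Sfrp1 stood at 0.935 to 11.3 CPM in C2C12 and 490 to 705 CPM in MLg (-7.37, SE 0.92; -6.56 without the R3 pair and -9.15 without C2C12 R5-1). The ligands were split as well, with Wnt10b at 41.8 to 62 CPM in C2C12 and at most 0.0574 CPM in MLg (10.85, SE 0.32), and Wnt5a higher in MLg (-6.22, SE 0.28). Of 14 tested Notch pathway genes 9 were higher in C2C12 and none in MLg, beside 16.5% and 17.0% over all genes. Hes1, a direct Notch target, stood at 61.1, 50.9, 49.7 and 60.3 CPM against 2.01 to 3.76 CPM (4.62, SE 0.21), and Megf10, which acts in satellite cells, at 185 to 205 CPM against 3.04 to 4.94 CPM (5.78, SE 0.14). The ligand Jag2 differed by 5.27 (SE 0.42).

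Genes of the hypoxia response were largely higher in the myotubes. Of 36 members of the list, all of them tested, 23 were higher in C2C12 and 4 in MLg, with a median log2 fold change of 1.42. Without the R3 pair the counts were 25 and 3 and the median 1.75. Car9, the carbonic anhydrase that serves as a marker of low oxygen, stood at 200, 190, 148 and 212 CPM in C2C12 and 2.78, 2.22, 1.94 and 1.83 CPM in MLg (log2 fold change 6.57, SE 0.19, adjusted p = 1.05e-08). Vegfa, the main angiogenic ligand, stood at 414, 247, 272 and 380 CPM against 62.3, 49.3, 52.1 and 55.5 CPM (2.73, SE 0.17, adjusted p = 7.49e-07). Bnip3, a mitophagy receptor at chr7:138890836-138909519, stood at 135, 63.7, 47.4 and 137 CPM against 12.9, 15.3, 15.6 and 14.2 CPM (2.87, SE 0.32, adjusted p = 3.67e-05). For all 3 genes every C2C12 library lay above every MLg library, and for Bnip3 the R3 pair lay nearer to MLg. P4ha1, a prolyl hydroxylase for collagen, differed by 2.20 (SE 0.14), the lactate exporter Slc16a3 by 5.62 (SE 0.32), and the glucose transporters Slc2a1 and Slc2a3 by 1.30 (SE 0.26) and 6.39 (SE 0.59).

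Hif1a, which encodes the oxygen-regulated subunit and is controlled mainly at the protein level, was not called, with 172, 228, 225 and 153 CPM in C2C12 and 168 to 182 CPM in MLg (0.33, adjusted p = 0.0657). It was called without C2C12 R5-1 (0.45, adjusted p = 0.00612) and without C2C12 R2-1 (0.42, adjusted p = 0.0423), and stood at 0.04 without the R3 pair (adjusted p = 0.704). Not all of its known targets were higher in C2C12. Adm, adrenomedullin, stood at 9.96, 1.53, 1.33 and 14.6 CPM against 72.9 to 79.9 CPM (-3.37, SE 0.69, adjusted p = 0.00184; -2.51 without the R3 pair and -4.05 without R5-1). Stc2, a stanniocalcin, was also higher in MLg (-1.93, SE 0.22). The demethylase Kdm3a was not called (-0.15, adjusted p = 0.511). Slc2a1 and Slc16a3 stand on both the hypoxia and the glycolysis list, and the labels give no oxygen level for the cultures.

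Glycolysis was higher in C2C12 along nearly its whole length. Of 20 tested genes 17 were higher in C2C12, 1 was higher in MLg and 2 were not called, with a median of 1.83, or 2.14 without the R3 pair. The 20 genes summed to 15336, 10899, 9936 and 16416 CPM in C2C12 and 3886 to 3982 CPM in MLg. EO771 cells alone, cultured in the same study, had 14440 to 15342 CPM for that list. Eno1, enolase, stood at 1955, 1479, 1371 and 1862 CPM against 137, 141, 146 and 136 CPM (log2 fold change 3.73, SE 0.12, adjusted p = 1.67e-08). Pgk1, which makes the first ATP of the pathway, stood at 952, 684, 590 and 935 CPM against 146, 167, 178 and 170 CPM (2.41, SE 0.15, adjusted p = 8.01e-07). Both genes were lower in the R3 pair than in the other C2C12 libraries, and remained far above MLg. Upstream, Pfkl, a subunit of the rate-setting phosphofructokinase, differed by 2.64 (SE 0.20), and downstream, Pkm, pyruvate kinase, by 1.89 (SE 0.16).

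Hk2, the inducible hexokinase, was not called, with 181, 48.3, 46.8 and 173 CPM in C2C12 and 56.2 to 73 CPM in MLg (0.88, adjusted p = 0.092). Without R3-1 or without R3-2 alone Hk2 was called (1.13, adjusted p = 0.0267, and 1.14, adjusted p = 0.0208), and without both it differed by 1.53 (adjusted p = 6.31e-06). The exception in the other direction was Ldhb, the lactate dehydrogenase of oxidative tissue, at 6.22, 4.19, 4.86 and 6.49 CPM in C2C12 and 111, 150, 131 and 148 CPM in MLg (-4.48, SE 0.15, adjusted p = 2.31e-08). Nuclear genes of oxidative phosphorylation differed little: of 28 tested, none was at least 2-fold apart, 9 were called at under 2-fold and 19 were not called. Their median was 0.07, and -0.09 with scaling by library totals alone. The ATP synthase subunit Atp5b differed by 0.04 (adjusted p = 0.635). Of 7 tested mitochondrially encoded genes, 1 was called at under 2-fold in the MLg direction and 6 were not called. Their median was -0.29, or -0.44 without the R3 pair. The called gene was mt-Nd2 (-0.86, adjusted p = 0.00437), which differed by -1.03 without the pair.

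**Figure D4:**
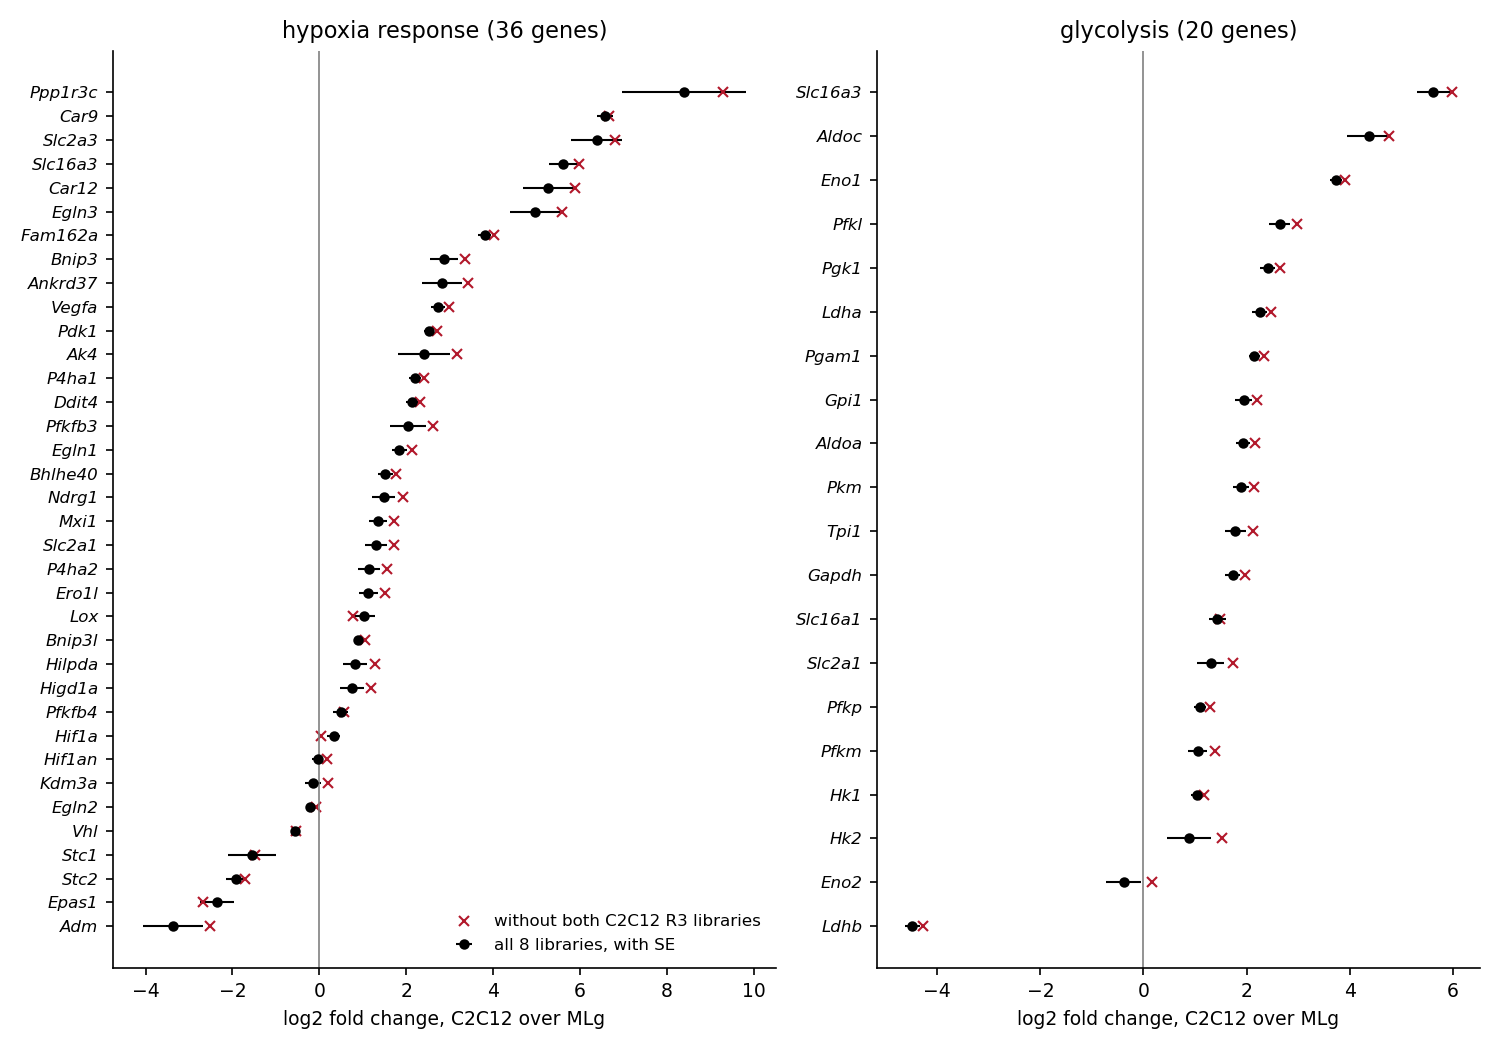
Log2 fold change of C2C12 over MLg for the 36 hypoxia genes and the 20 glycolysis genes, as black points with bars of 1 SE, and as red crosses without the C2C12 R3 pair. Most points lie right of 0, Car9 at 6.57 and Eno1 at 3.73 among them, and Ldhb at -4.48 lies left of it.

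Promoters of Bnip3 and Pgk1 are shown because both are textbook targets of HIF-1, which binds ACGTG or GCGTG. These letters were chosen after the values were seen. Every match on either strand is in capitals, with adjoining matches joined. The Bnip3 window lies at chr7:138909520-138909756 on the minus strand; it has 237 bases, since 13 bases within an annotated exon were left out, and holds 5 matches. The Pgk1 window lies at chrX:106186850-106187099 on the plus strand and holds 2.
Bnip3: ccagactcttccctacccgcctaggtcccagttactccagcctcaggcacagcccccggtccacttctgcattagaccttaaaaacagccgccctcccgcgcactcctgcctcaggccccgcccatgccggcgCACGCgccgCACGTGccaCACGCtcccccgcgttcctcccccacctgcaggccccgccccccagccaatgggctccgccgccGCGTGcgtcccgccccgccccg
Pgk1: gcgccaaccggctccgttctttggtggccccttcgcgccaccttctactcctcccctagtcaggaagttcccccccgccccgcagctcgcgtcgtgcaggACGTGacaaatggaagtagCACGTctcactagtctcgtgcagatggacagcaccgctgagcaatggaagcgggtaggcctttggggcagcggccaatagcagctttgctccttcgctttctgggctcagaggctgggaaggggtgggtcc
Of all RefSeq windows, 38.6% held such a match, and of all genes with a window 41.5% did in at least 1. In the hypoxia list 25 of 28 genes with a window held a match, and 17 of the 18 with a window that were higher in C2C12. So did 2 of the 2 with a window that were higher in MLg. In the glycolysis list it was 17 of 20, with 15 of the 17 higher in C2C12 and the 1 higher in MLg. Whether the matches were bound was not measured.

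Cell cycle genes were higher in MLg. All 28 genes of G2/M and mitosis were at least 2-fold higher in MLg, with a median of -2.35, and without the R3 pair 27 were. They summed to 113, 205, 203 and 355 CPM in C2C12 and 1172 to 1351 CPM in MLg. Mki67, the proliferation antigen, stood at 8.39, 26.1, 22.7 and 31.6 CPM against 130, 147, 124 and 141 CPM (log2 fold change -2.45, SE 0.33, adjusted p = 0.000138). Top2a, which untangles sister chromosomes, differed by -2.97 (SE 0.26). C2C12 R2-1 was lowest and R5-1 highest in the mitosis sum, so these libraries, alike in their sarcomere genes, differed here. Among 28 genes of S phase and replication 16 were higher in MLg and none in C2C12 (median -1.18). The helicase subunit Mcm5 stood at 5.71, 6.23, 6.06 and 10.6 CPM against 82.4, 59.2, 53.6 and 49.3 CPM (-2.95, SE 0.24), and the loading factor Cdc6 differed by -3.40 (SE 0.30).

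Of 28 tested cyclins, inhibitors and p53 targets, 5 were higher in C2C12 and 6 in MLg, close to the 16.5% and 17.0% over all genes. Ccnd2, cyclin D2, stood at 35.6 to 41.4 CPM in C2C12 and 330 to 398 CPM in MLg (-3.04, SE 0.10, adjusted p = 1.68e-08), and Ccne1, cyclin E1, differed by -1.51 (SE 0.22). Cdkn1a, the inhibitor p21 that rises as myoblasts stop dividing, stood at 157, 61.7, 63.8 and 258 CPM against 25.6 to 30 CPM (2.37, SE 0.41, adjusted p = 0.000698; 2.98 without the R3 pair). The pocket protein Rb1 was higher in C2C12 (1.53, SE 0.07), as was the growth factor target Myc (1.40, SE 0.22). Cdkn1b, the inhibitor p27, was not called (0.07, adjusted p = 0.375). Cdkn2a had no counts in any of the 8 libraries.

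**Figure D5:**
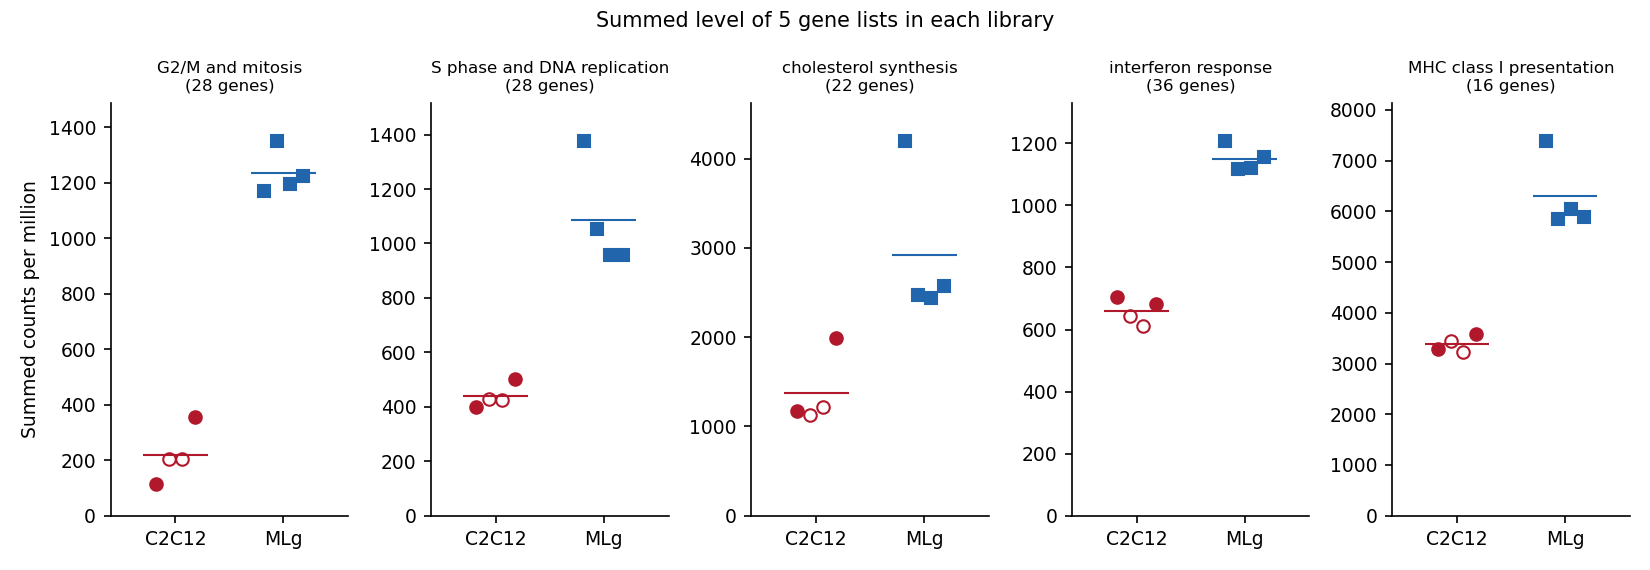
Summed CPM per library for the G2/M, S phase, cholesterol synthesis, interferon response and MHC class I lists, with symbols as in the plot of muscle genes and a line at each group's mean. The G2/M sums of C2C12 at 113 to 355 CPM lie below those of MLg at 1172 to 1351 CPM, and MLg R3-2 is the highest MLg library in the S phase, cholesterol, interferon and MHC class I panels.

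Cholesterol synthesis genes were also higher in MLg, 15 of 22 tested, with 1 higher in C2C12 and a median of -1.27; without the R3 pair 12 were higher in MLg. They summed to 1171, 1129, 1217 and 1989 CPM in C2C12 and 4199, 2476, 2444 and 2576 CPM in MLg. MLg R3-2 was thus the highest library, and C2C12 R5-1 the highest of its line. Msmo1, a sterol demethylase, stood at 44.1, 43.7, 47.9 and 89.2 CPM against 339, 175, 178 and 182 CPM (-1.82, SE 0.29, adjusted p = 0.000432), and Fdps, farnesyl diphosphate synthase, differed by -2.20 (SE 0.37).

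Genes of the interferon response and of antigen presentation lay mostly on the MLg side. Of 32 tested interferon response genes 21 were higher in MLg and 1 in C2C12 (2 without C2C12 R5-1), with a median of -1.67. Gbp2, an interferon-induced GTPase, stood at 6.27, 6.01, 5.91 and 5.2 CPM in C2C12 and 55.4, 50, 50.3 and 55 CPM in MLg (log2 fold change -3.01, SE 0.10, adjusted p = 2.05e-08). Gbp3, its relative, stood at 0.912, 0.643, 0.572 and 0.449 CPM against 9.01, 10.1, 11.5 and 12 CPM (-3.89, SE 0.24, adjusted p = 7.79e-07). The replicates of each line were close for Gbp2, whereas Gbp3 ranged from 0.449 to 0.912 CPM in C2C12. The lines did not overlap for either gene. The DNA sensor Cgas was the member higher in C2C12 (2.67, SE 0.46), and Ifitm3, a restriction factor, was called in the same direction at under 2-fold (0.72, SE 0.09). Among 16 tested genes of MHC class I presentation 11 were higher in MLg and 1 in C2C12 (median -1.77). Psmb9, an immunoproteasome subunit, stood at 0.0698 to 0.116 CPM against 12.2 to 18.9 CPM (-7.19, SE 0.26), the peptide transporter Tap1 differed by -3.38 (SE 0.34; -4.12 without the R3 pair), and their activator Nlrc5 by -3.33 (SE 0.28). The non-classical H2-T23 was the member higher in C2C12 (1.23, SE 0.11).

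The promoter of Gbp3 is shown because it holds a core of the interferon-stimulated response element, GAAA repeated after any 2 bases, on which STAT and IRF factors act. These letters were chosen after the values were seen. It lies at chr3:142559794-142560025 on the plus strand, with 232 bases after 18 exonic bases were left out, and the 2 overlapping matches are in capitals.
Gbp3: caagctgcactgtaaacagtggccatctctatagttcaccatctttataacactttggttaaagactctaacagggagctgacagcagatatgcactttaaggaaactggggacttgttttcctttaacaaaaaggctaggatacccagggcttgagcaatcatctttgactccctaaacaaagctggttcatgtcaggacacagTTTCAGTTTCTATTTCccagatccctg
Both strands were searched, and 2.98% of all RefSeq windows held a match. Of all genes with a window, 3.46% held it in at least 1. On the interferon list 12 of 26 genes with a window did, and 6 of the 13 with a window that were higher in MLg. On the MHC class I list 2 of 14 did.

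Soluble immune factors differed by family. Of 21 tested chemokine ligands 12 were higher in MLg and 4 in C2C12, the latter 2 without C2C12 R3-2. Of 22 tested cytokines of the IL-6, IL-1, TNF and CSF families 5 were higher in C2C12 and 4 in MLg, 2 were called at under 2-fold and 11 were not called, with a median of 0.25. Those 5 and 4 members were not far from the 16.5% and 17.0% over all genes. Ccl2, which recruits monocytes, stood at 22.3, 16.7, 21.8 and 35.7 CPM against 747, 347, 465 and 429 CPM (-4.22, SE 0.30, adjusted p = 2.35e-06), and Cxcl12, which retains stem cells and leukocytes, differed by -2.02 (SE 0.21). Cxcl1, a neutrophil attractant, was higher in C2C12 (1.11, SE 0.23), but at under 2-fold without the R3 pair (0.62). Of 12 tested complement genes 6 were higher in MLg and 3 in C2C12. C3, the hub of the complement cascade, stood at 32.6, 16.7, 21.1 and 15.5 CPM against 3821, 2686, 1938 and 2239 CPM (-6.81, SE 0.36, adjusted p = 3.09e-07), and C4b differed by -9.19 (SE 0.33). The alarmin Il33 and its receptor were on opposite sides. Il33 stood at 115, 49.7, 39.5 and 156 CPM in C2C12 against 1.62 to 3 CPM (5.51, SE 0.49), and the receptor Il1rl1 at 1.96 to 5.58 CPM against 956, 572, 605 and 575 CPM (-7.16, SE 0.40). The macrophage marker list summed to 4.11 to 5.32 CPM in C2C12 and 13.3 to 17.9 CPM in MLg; its part in these differences was not tested.

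Imprinted genes, expressed from the allele of a particular parent, were mostly higher in MLg. Of 20 tested, 4 were higher in C2C12 and 11 in MLg. H19, a long RNA abundant in muscle precursors, stood at 478, 248, 229 and 890 CPM in C2C12 and 1.48 to 4.25 CPM in MLg (7.73, SE 0.60). Grb10, a growth-limiting adaptor, stood at 0.0104 to 0.182 CPM in C2C12 and 430, 520, 533 and 526 CPM in MLg (-12.42, SE 0.39, adjusted p = 1.54e-08; -11.46 without the R3 pair). Plagl1, a zinc finger factor, was also nearly silent in C2C12 (-11.19, SE 0.37), with -15.22 without the pair and -12.47 without R3-1 alone.

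Some genes were absent from a line altogether with high counts in the other. Fam217b, at chr2:178414524-178424428, stood at 62.2, 57.4, 60.2 and 58.8 CPM in MLg and at 0 in all C2C12 libraries, at least 5806-fold lower. Its neighbour on the opposite strand, Ppp1r3d, at chr2:178411206-178414472, stood at 16.7, 12.6, 15.1 and 16.1 CPM in MLg and likewise at 0 in C2C12, at least 1472-fold lower; Ppp1r3d encodes a glycogen-targeting subunit of protein phosphatase 1. The DNA repair gene Mgmt was at 0 in C2C12 and at 17.4 to 22.8 CPM in MLg, at least 2005-fold lower. Olfml1 (at least 7513-fold), Phactr2 (at least 5881-fold) and Rnf130 (at least 5103-fold) showed the same pattern. In the other direction G0s2, an inhibitor of triglyceride breakdown, stood at 53.6, 60.9, 56.4 and 44.8 CPM in C2C12 and 0 in MLg, at least 4802-fold higher.

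The pair Ppp1r3d and Fam217b is set head to head, and the 51 bases between the annotated exons, at chr2:178414473-178414523 and shown on the plus strand, are printed because both genes on either side were silent in the same line. The 8 CG pairs, the sites of DNA methylation in promoters, are in capitals; they were chosen after the values were seen, and methylation was not measured.
Ppp1r3d to Fam217b: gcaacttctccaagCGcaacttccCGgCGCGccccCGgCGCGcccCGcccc
Of all RefSeq windows, 7.23% held at least 8 CG pairs in the 51 bases before the start.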

How the data were processed

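Polyadenylated RNA was sequenced from stranded libraries, per the labels' protocols, and the authors deposited raw read counts for 55536 genes per library. Tools listed in the submitters' processing notes, with no roles stated, are DESeq2, featureCounts from Subread 2.0.1, the aligner STAR 2.7.10a and the read trimmer fastp. The build, annotation and strand setting behind the counts are not given in the sources used; therefore overlapping or near-identical genes are uncertain. All gene IDs were found in GENCODE M21 (GRCm38), which gave symbols, exon lengths and 1-based coordinates. Promoter sequences are RefSeq's (GRCm38.p6). CPM are counts per 1000000 of a library's total, and SD and n = 4 stand behind each group unless values are listed.

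The 4 C2C12 and 4 MLg libraries were fitted with edgeR 4.0.16 (R 4.3.3): TMM scaling, the filterByExpr filter (minimum count 10, total 15), the quasi-likelihood F test with p-values adjusted by Benjamini and Hochberg's method across the 17350 genes that passed. All adjusted p-values are edgeR's unless DESeq2 1.42.0 is named. The standard error (SE) of a log2 fold change is its size divided by the square root of F. At 54833532 counts or more per library, counting error was small beside the spread between libraries. A fold against a group at 0 uses a floor of 3 counts over its 4 libraries, 0.0103 CPM in C2C12 and 0.0112 CPM in MLg, and covers counting error only. Within a group, libraries correlated at 0.978 to 0.997 (log2 CPM), and no pair agreed within sampling noise (lowest chi-square per degree of freedom 16.3).

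The comparison, its 49 gene lists and 14 marker lists were chosen with earlier results of these data known. Lists are described by counts and medians, with no test. Genes were named by a rule: the 15 largest differences in each direction among called genes with a mean of at least 5 CPM and no overlap, up to 5 called members per list and direction with at least 1 CPM, up to 3 members per list that were not called or under 2-fold, every marker and a short panel; the text names a subset. The steps were tested on simulated data. Alternatives were other scalings, DESeq2, no filter, fits with 12 or 16 libraries, a replicate block, a test against 2-fold and leaving out libraries. Of the other 20 libraries, those of EO771 alone gave 1 list sum and the fit of 12, and the co-cultured C2C12 and MLg libraries entered the fit of 16; the main comparison uses none of them.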

Additional observations from a re-analysis of the deposited data

Results flagged for a closer look

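In 291 groups of 4 libraries of a gene named here, 31 values had a library whose gap to its nearest neighbour took up most of the group's range (Dixon's test at the 95% level), which chance does in about 1 of 20 groups. MLg R3-2 held 19 of the 31 values and C2C12 R5-1 held 9.

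MLg R3-2 was the highest of its group for Fdps at 52 CPM (others 21.1 to 22.5), Msmo1 at 339 CPM (175 to 182), Psmb9 at 18.9 CPM (12.2 to 13.1), Tap1 at 43.3 CPM (27.8 to 29.5) and H2-T23 at 45 CPM (35.6 to 36.3). These are genes of cholesterol synthesis and antigen presentation, lists in which its sum was also the highest of MLg. It was also highest for Mmp9 at 28.3 CPM (8.61 to 11.5), Il1rl1 at 956 CPM (572 to 605), Grem1 at 3854 CPM (2961 to 3062), Fst at 53.1 CPM (42 to 42.2), Plagl1 at 92.1 CPM (68.7 to 71.1), Igfbp5 at 9.1 CPM (0.907 to 1.78), H19 at 4.25 CPM (1.48 to 1.93) and Postn at 17.3 CPM (13 to 13.4). It was lowest for Dcn at 1640 CPM (1985 to 2028), Lum at 430 CPM (758 to 780), Grb10 at 430 CPM (520 to 533), Itga2 at 22.5 CPM (37.8 to 40.3), Hoxa9 at 1.39 CPM (2.01 to 2.11) and Stc2 at 4.1 CPM (6.17 to 6.41).

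C2C12 R5-1 was the highest of its group for Pax7 at 15 CPM (0.684 to 2.92), Mcm5 at 10.6 CPM (5.71 to 6.23), Fdps at 9.61 CPM (4.41 to 4.67), Msmo1 at 89.2 CPM (43.7 to 47.9), Sfrp1 at 11.3 CPM (0.935 to 1.05) and Kcnj2 at 254 CPM (200 to 203), and the lowest for Fn1 at 22054 CPM (28631 to 29793), Ddr2 at 234 CPM (342 to 363) and Plod2 at 421 CPM (565 to 585). It thus combined the highest satellite cell factor with high sarcomere genes. Single values elsewhere were Col1a2 in MLg R5-2 at 12367 CPM (10323 to 10580), Hes1 in MLg R5-2 at 3.76 CPM (2.01 to 2.14) and Ccne1 in MLg R6-1 at 7.46 CPM (9.23 to 9.59).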

How the results depend on the processing

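The count of called genes ranged from 9880 to 12102 over the alternatives, and the count at least 2-fold apart from 4253, with edgeR's test against 2-fold (2216 higher in C2C12, 2037 in MLg), to 7255 with no filter on low counts. Over 55 counts and list medians, 860 of 883 alternative values stayed within the limits: 1.5 times the count, or, for a median, the larger of the lines' SDs between libraries of the list's median log2 CPM. With library totals only, medians were 0.51 for limb and trunk factors, 0.30 for smooth muscle, -0.33 for the YAP pathway, -0.61 for insulin-like growth factors, 0.57 for TGF-beta, 0.83 for the PDGF to EGF families, -0.30 for cyclins and -0.24 for ER chaperones; those of oxidative phosphorylation and of the TCA cycle turned to -0.09 and -0.09. Without both C2C12 R3 libraries, medians were 0.79 for matrix glycoproteins, -0.38 for insulin-like growth factors, 0.56 for TGF-beta, -1.36 for chemokines, 0.24 for the TCA cycle and -0.97 for imprinted genes. Leaving out 1 library at a time gave medians of 0.66 to 0.84 for limb and trunk factors, 0.06 to 0.39 for WNT, -0.29 to -0.07 for cyclins and -0.21 to -0.02 for ER chaperones. With the R number as a replicate block 9880 genes were called, and medians were -0.53 for insulin-like growth factors and -1.37 for S phase; same-numbered libraries did not deviate together (correlations -0.007, 0.043 and 0.039), so the number is not taken as a pairing. Of 183 named genes, 9 changed their call under an alternative: Mef2c, Hk2, Hif1a (also called by DESeq2, 0.35, and in the fit of 12 libraries, 0.33) Atp2a2 and Dcn, which turned to 0.29 and 0.37 without both R3 libraries, and Egr1, Vcam1, Msln and Myh11, named only as markers. The cause of these shifts was not tested. Depth limited only the genes at or near 0 in a line. Folds against a group at 0 are bounds. Those against a group with a few counts, such as Myod1 with 4 counts in MLg, are fitted values that rest on those counts.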

Other observations

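Further gene groups are given beside the 16.5% of all tested genes that were higher in C2C12 and the 17.0% higher in MLg. Of 17 tested genes for collagen crosslinking and folding, 7 were higher in C2C12 and none in MLg. Plod2, the lysyl hydroxylase of collagen ends, differed by a log2 fold change of 4.24, Plod1 by 2.83 and the collagen-processing protease Bmp1 by 1.38. Among 16 tested heat shock genes 4 were higher in C2C12 and 1 in MLg (0 when C2C12 R2-1, C2C12 R3-2, MLg R5-2 or MLg R6-2 was left out), not far from those shares. Of the small heat shock genes, Hspb7 stood at 34, 1.06, 3.36 and 53.4 CPM in C2C12 R2-1, R3-1, R3-2 and R5-1 against 0.0576 to 0.259 CPM in MLg (7.42, SE 1.33; 8.36 without the R3 pair and 6.60 without R5-1), and Hspb2 at 9.98 to 17.1 CPM against 0.43 to 0.729 CPM (4.69, SE 0.24). Of 18 genes of the amino acid stress response none was higher in C2C12 (1 when C2C12 R2-1, C2C12 R3-1, the R3 pair or MLg R3-2 was left out) and 4 in MLg, a share near that of all genes, among them Phgdh, which opens serine synthesis (-2.30), and Psat1 (-1.46).

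Of 21 tested smooth muscle and stress fibre genes 4 were higher in each line, close to the shares over all genes. Acta2, the actin of smooth muscle and activated fibroblasts, stood at 876, 1545, 1491 and 1006 CPM in C2C12 and 444 to 494 CPM in MLg (1.53, SE 0.20), with the R3 pair the highest. Among 11 tested cadherins 4 were higher in C2C12 and 5 in MLg: Cdh13 differed by 8.65 (SE 0.24), Cdh11 by -2.34 (SE 0.52; -1.64 without the R3 pair and -3.09 without C2C12 R5-1), and Cdh2, N-cadherin, was not called (0.24, adjusted p = 0.11). Xist, the RNA that coats the inactive X chromosome of female cells, was present in both lines, at 748 to 996 CPM in C2C12 and 1317 to 2002 CPM in MLg.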
